A study of Homo sapiens with 12 samples.

Results

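Ephrin receptors and their ephrin ligands position cells along the intestinal crypt, and 10 genes of this family were followed here: the receptors EPHA1, EPHA2, EPHA4, EPHB2, EPHB3 and EPHB4 and the ligands EFNA1, EFNA4, EFNB1 and EFNB2. Their rows were found by gene symbol in a deposited table of log2 expression values, and where a gene had several rows the one with the highest mean was used. Of the 10 genes, 9 had an annotated row, among 17687 genes in all, and EPHB2 was not analysed here. The cells were DLD1 and HCT 116, both established human colorectal cancer lines, the first with a truncated APC and the second with a mutant CTNNB1 that escapes degradation. Cells of each line were transfected with siControl, a control siRNA, or with siBRG1, which targets BRG1, the ATPase of the SWI/SNF chromatin remodelling complex that the gene SMARCA4 encodes. This gave 4 groups of 3 Affymetrix expression arrays, 12 in all, and since the labels name no separate cultures behind them, every p-value measures only the spread between these arrays, which may be technical. Knockdown by siRNA leaves some transcript. The sources used here state neither the siRNA sequences nor when the cells were harvested.

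Eph receptors are receptor tyrosine kinases whose ligands, the ephrins, are held on the membrane of the neighbouring cell. A-type ephrins are attached by a lipid anchor and B-type ephrins span the membrane, and binding signals into both cells, which usually retract from each other. In the intestinal crypt, EPHB2 and EPHB3 are induced by beta-catenin and TCF in the dividing cells near the base, while EFNB1 and EFNB2 are carried by the differentiated cells above, and the resulting repulsion keeps the compartments apart. EPHA2 and EFNA1 form the A-type pair best known from epithelial tumours.

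SMARCA4 itself checked the labels. In DLD1 its 3 siControl arrays read 10.31, 9.95 and 10.29 and its 3 siBRG1 arrays 6.29, 6.55 and 6.31, a fall of 3.80 on the log2 scale (SE 0.21, limma adjusted p = 4.56e-07). In HCT 116 the siControl arrays read 10.12, 10.15 and 9.59 and the siBRG1 arrays 6.78, 6.39 and 7.03, which fell by 3.22 (SE 0.21, limma adjusted p = 1.14e-06). Array medians lay between 6.36 and 6.50. The DLD1 siBRG1 values of 6.29 and 6.31 for SMARCA4 lie below them, so the level left on those arrays cannot be told from background. The remaining DLD1 siBRG1 value, 6.55, lies above them. The correlation over all rows of the table was 0.988 to 0.994 within a group and 0.983 to 0.994 between siControl and siBRG1 arrays of a line. Between the lines it was 0.941 to 0.952. Of 9 epithelial markers, EPCAM, KRT8, KRT18, KRT19, CDH1 and CDX2 were above the median of every array, while VIL1, CDX1 and LGALS4 were below it. Below every median were 6 of 8 fibroblast, 4 of 6 immune and 3 of 4 endothelial markers. COL1A2 and ACTA2 were above every median, and in HCT 116 siBRG1 cells ACTA2 rose by 0.89 (limma adjusted p = 0.0204) and CD68 by 1.29 (limma adjusted p = 0.0036). The part of these markers in the results below was not tested. The table holds no detection call, so a value below the array medians cannot be told from background here. The medians serve as a cut-off and are no measured background. Over all arrays the fibroblast markers read from 2.61 to 8.95, the immune markers from 3.06 to 7.25 and the endothelial markers from 2.62 to 6.61.

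In HCT 116 cells, EPHA2 rose and EFNA4 fell after siBRG1. EFNA1 was higher after siBRG1 on average over both lines. The promoters of these 3 genes are shown because their products include the A-type pair EPHA2 and EFNA1, and because EFNA4 and EFNA1, which lie near each other on chromosome 1, passed on average over the lines with opposite signs. Each sequence is the 250 bases before the annotated start, read 5′ to 3′ on the gene's strand, from RefSeq (GRCh38.p14).
EPHA2, chr1:16156070-16156319, minus strand: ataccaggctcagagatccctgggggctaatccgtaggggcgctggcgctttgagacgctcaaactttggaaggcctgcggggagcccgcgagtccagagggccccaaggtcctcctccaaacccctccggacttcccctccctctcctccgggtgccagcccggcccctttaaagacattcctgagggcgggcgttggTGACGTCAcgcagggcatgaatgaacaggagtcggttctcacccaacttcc
EFNA4, chr1:155063490-155063739, plus strand: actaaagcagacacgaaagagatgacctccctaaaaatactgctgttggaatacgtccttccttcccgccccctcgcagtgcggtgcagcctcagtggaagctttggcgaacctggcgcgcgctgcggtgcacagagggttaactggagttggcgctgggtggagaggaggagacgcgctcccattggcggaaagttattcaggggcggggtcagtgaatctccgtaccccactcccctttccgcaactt
EFNA1, chr1:155127626-155127875, plus strand: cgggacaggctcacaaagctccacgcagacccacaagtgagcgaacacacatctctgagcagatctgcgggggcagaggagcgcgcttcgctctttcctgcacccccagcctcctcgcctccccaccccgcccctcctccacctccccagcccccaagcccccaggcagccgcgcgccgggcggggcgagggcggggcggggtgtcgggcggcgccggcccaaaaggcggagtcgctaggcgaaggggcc
The capitals mark the CRE motif TGACGTCA, which CREB and ATF factors bind and which reads the same on both strands. It begins 51 bases before the start of EPHA2. It was the one CRE match among the 10 promoter windows of the 9 measured genes (EPHA4 has 2), and 1.6% of 35116 RefSeq promoters of the same length hold one. On both strands, the SNAI E-box CACCTG was found in the windows of EPHA1 and EFNB2, 2 of 10, against 17.5% of all promoters. Neither the AP-1 motif TGANTCA, present in 6.6% of all promoters, nor the TCF motif CTTTGAT, present in 2.3%, occurred in any of the 10 windows. GC content was 63.2% for EPHA2, 58.4% for EFNA4 and 73.2% for EFNA1. The median was 66.8% over the 10 windows and 58.0% over all promoters, and the median number of CpG dinucleotides was 19 against 11. Nothing was measured at these promoters, so the matches describe sequence and no factor's binding.

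EPHA2, a receptor for A-type ephrins that is abundant in many carcinomas, rose 2.52-fold in HCT 116. The siControl arrays read 10.03, 9.65 and 9.98 and the siBRG1 arrays 11.67, 11.00 and 11.00. Every siBRG1 array was above every siControl array. The log2 change was 1.33 (SE 0.23, 95% interval 0.84 to 1.83, limma adjusted p = 0.00333), and it passed in all 23 alternative analyses, with adjusted p from 0.00116 to 0.0216. In DLD1 the siControl arrays read 10.20, 9.96 and 10.35 and the siBRG1 arrays 9.95, 10.23 and 10.64. Those groups overlapped, and the change was 0.10 (95% interval -0.39 to 0.60, limma adjusted p = 0.951). The difference between the 2 lines' changes was 1.23 (SE 0.33, 95% interval 0.53 to 1.93) and did not pass over all genes (limma adjusted p = 0.167). By mean level the order was HCT 116 siControl, DLD1 siControl, DLD1 siBRG1 and HCT 116 siBRG1, and of these 3 steps the last was without overlap.

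**Figure D1:**
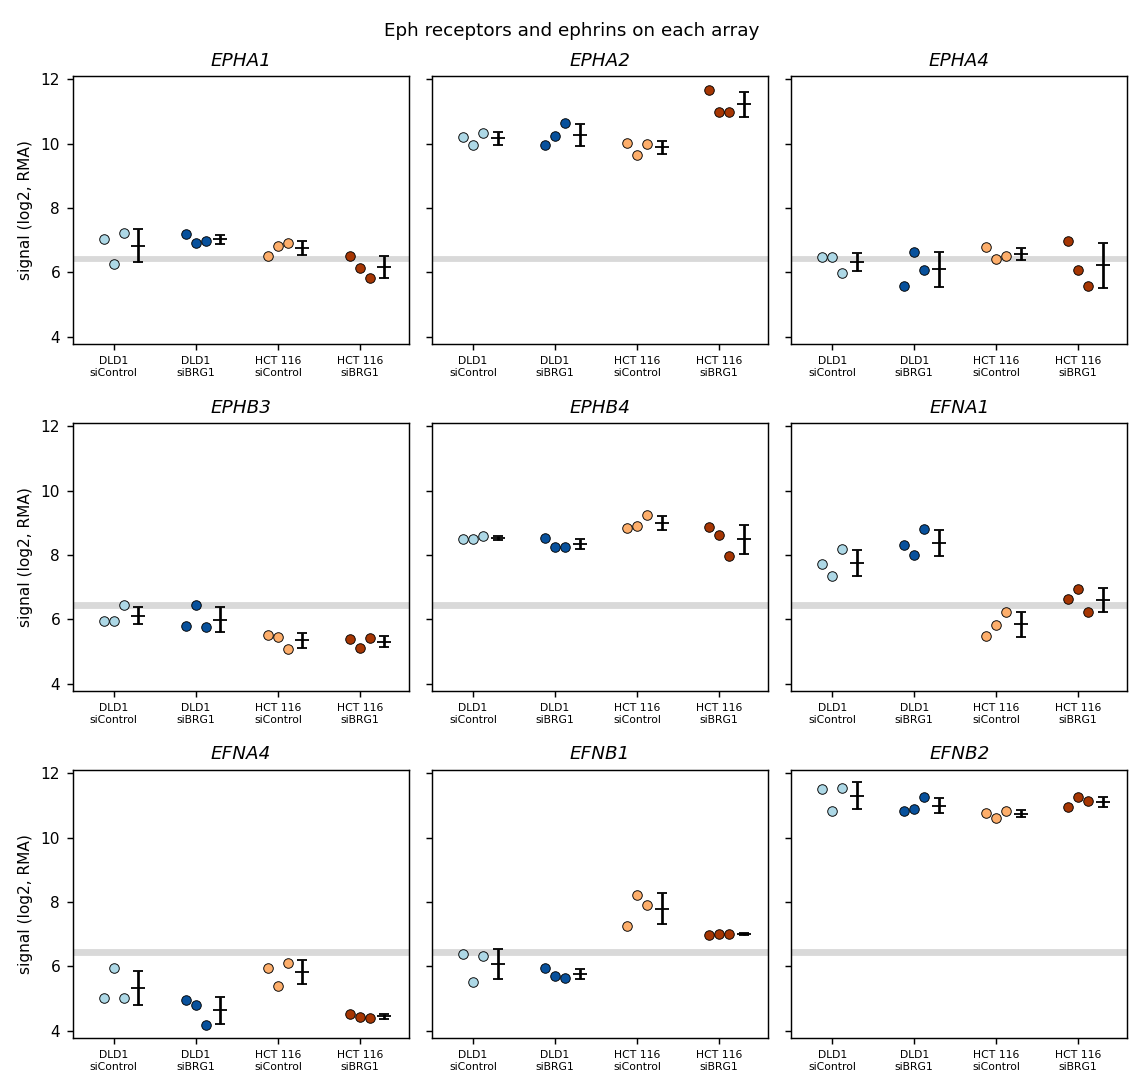
Log2 expression of the 9 measured genes on each of the 12 arrays (points), with the mean and SD of each group of 3 arrays (bars) and the range of the array medians, 6.36 to 6.50 (grey band). EPHA2 stands higher in HCT 116 siBRG1 (11.00 to 11.67) than in the other groups, EFNA4 lies below the band on every array, and EFNA1 and EFNB1 sit at different levels in the 2 lines.

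The other A-type receptors did not pass the test in either line. EPHA1 read 6.51, 6.83 and 6.92 in HCT 116 siControl cells and 6.52, 6.14 and 5.84 after siBRG1. The siBRG1 value of 6.52 lay above the lowest siControl value, and the change was -0.59 (SE 0.25, limma adjusted p = 0.185). In DLD1 its values spread from 6.27 to 7.22 and the change was 0.20 (limma adjusted p = 0.872). EPHA4, which binds ephrins of both types, read 5.58 to 6.99 over all arrays and was below the array median on 6 of 12. Its changes were -0.21 in DLD1 and -0.35 in HCT 116 (limma adjusted p = 0.908 and 0.623). For EPHA1 and EPHA4 all neighbouring groups in the order of levels overlapped.

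The B-type receptors did not pass either. EPHB3, the crypt-base receptor that is a beta-catenin and TCF target, was below the array median on 11 of 12 arrays, so its values cannot be told from background. Its changes were -0.12 in DLD1 and -0.05 in HCT 116 (limma adjusted p = 0.932 and 0.946), and the HCT 116 value turned to 0.03 when arrays were centred on their medians. EPHB4, the receptor for EFNB2 best known from vessels, was above the median on every array. It read 8.85, 8.91 and 9.24 in HCT 116 siControl cells and 8.86, 8.61 and 7.98 after siBRG1. These groups met at 8.85 and 8.86, and the change was -0.52 (limma adjusted p = 0.185). In DLD1 its change was -0.19 (limma adjusted p = 0.856). HCT 116 siControl had the highest mean of EPHB4 and did not overlap the next group, DLD1 siControl, while the other neighbouring groups overlapped.

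Among the ligands, EFNA4, an A-type ephrin, fell in HCT 116, at values that are all below the array medians and so cannot be told from background. The siControl arrays read 5.96, 5.40 and 6.09 and the siBRG1 arrays 4.53, 4.42 and 4.39. The groups did not overlap, and the log2 change was -1.37 (SE 0.28, 95% interval -1.96 to -0.78, limma adjusted p = 0.00822). In DLD1 the siControl arrays read 5.02, 5.93 and 5.01 and the siBRG1 arrays 4.96, 4.80 and 4.16. Those groups also did not overlap, with 4.96 just under 5.01, but the change did not pass at -0.68 (SE 0.28, limma adjusted p = 0.378). With the replicate number as a block, which pairs these arrays, it did not pass either (limma adjusted p = 0.172). The change in HCT 116 minus that in DLD1 was -0.69 (95% interval -1.52 to 0.14, limma adjusted p = 0.679). No fold is given for this gene, and it was left out when only genes above the median level were kept. By mean the table's values ran from HCT 116 siBRG1 through DLD1 siBRG1 and DLD1 siControl to HCT 116 siControl, with no overlap at the second step, and at these levels the order cannot be read as one of transcript amounts. In the other 22 alternative analyses the HCT 116 fall passed, with adjusted p from 0.0039 to 0.041.

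EFNA1, the main ligand of EPHA2, read higher after siBRG1 in both lines, and neither line passed alone. In DLD1 the siControl arrays read 7.71, 7.35 and 8.18 and the siBRG1 arrays 8.32, 7.99 and 8.82. These overlapped and differed by 0.63 (SE 0.28, limma adjusted p = 0.446). With the replicate number as a block, which pairs these arrays, the SE was 0.22 and the change did not pass either (limma adjusted p = 0.210). In HCT 116 the siControl arrays read 5.47, 5.82 and 6.24 and the siBRG1 arrays 6.64, 6.94 and 6.22. One siBRG1 array lay just below the highest siControl array, and the change was 0.76 (SE 0.28, limma adjusted p = 0.126). The change averaged over the lines was 0.69 (SE 0.20) and passed narrowly (limma adjusted p = 0.0425). The difference between the lines was 0.13 (95% interval -0.71 to 0.98, limma adjusted p = 0.970). With the block the average passed (SE 0.16, limma adjusted p = 0.0192) and HCT 116 alone did not (limma adjusted p = 0.0569). Arrays of one number did not all deviate together in HCT 116. The leave-out fits that follow are without the block. The average passed without DLD1 siControl 3, DLD1 siBRG1 2, HCT 116 siControl 3 or HCT 116 siBRG1 3. It did not pass without any one of the other 8 arrays. Without DLD1 siControl 1 and 2 the adjusted p was 0.0784 and 0.0981, and without DLD1 siBRG1 1 and 3 it was 0.0594 and 0.123. Without HCT 116 siControl 1 and 2 it was 0.0836 and 0.0847, and without HCT 116 siBRG1 1 and 2 it was 0.0738 and 0.106, with the change between 0.58 and 0.80 over all 12 such fits.

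The B-type ligands of the crypt, EFNB1 and EFNB2, did not pass in either line. EFNB1 read 7.25, 8.21 and 7.91 in HCT 116 siControl cells and 6.98, 7.02 and 7.00 after siBRG1. The groups did not overlap and the change was -0.79 (SE 0.26, limma adjusted p = 0.0836). It passed without HCT 116 siControl 1 (-1.06, limma adjusted p = 0.0202). In DLD1 EFNB1 read 5.53 to 6.38 and was below the array median on 5 of the 6 arrays, and its change was -0.31 (limma adjusted p = 0.780). EFNB2 read 10.76, 10.61 and 10.83 in HCT 116 siControl cells and 10.95, 11.26 and 11.13 after siBRG1. These did not overlap, and the change was 0.38 (limma adjusted p = 0.359). In DLD1 its groups overlapped and the change was -0.31 (limma adjusted p = 0.698), and the difference between the lines was 0.69 (limma adjusted p = 0.510). All neighbouring groups of EFNB2 overlapped in the order of levels.

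Counted together, 2 of 9 genes passed in HCT 116, 1 higher and 1 lower, where 6.95% of all genes passed, 2.82% higher and 4.13% lower. The groups did not overlap for 4 of the 9 there, against 24.9% of all genes. In DLD1 none of the 9 passed limma's adjusted test, where 0.198% of all genes did. An unadjusted limma p under 0.05 was found for 2 (EFNA1 and EFNA4). They ranked 1630 and 1207 of 17687 genes by p, so many other genes had one too. With the replicate number as a block, which pairs the arrays in DLD1, none of the 9 passed either. The groups did not overlap for 1 of 9 in DLD1 against 15.5% of all genes. Averaged over the lines 3 of 9 passed (EPHA2, EFNA1 and EFNA4), where 8.68% of all genes did. EPHA2 averaged 0.72 (SE 0.16, limma adjusted p = 0.0148) and EFNA4 -1.03 (SE 0.19, limma adjusted p = 0.0054), and EFNB1 at -0.55 did not pass (limma adjusted p = 0.0788). With the replicate number as a block EFNB1 passed on average (limma adjusted p = 0.0427), which makes 4 of 9. The share of all genes passing with the block was not counted, and 8.68% is the share without it. None of the 9 differed between the lines in its change by limma's adjusted test, where 0.334% of all genes did. For this difference 3 (EPHA1, EPHA2 and EFNB2) had an unadjusted limma p under 0.05. They ranked 1369, 211 and 1329 of 17687 genes by p, so many other genes had one too. The median change over the 9 genes was -0.19 in DLD1 and -0.35 in HCT 116, beside 0.01 and -0.01 over all genes.

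**Figure D2:**
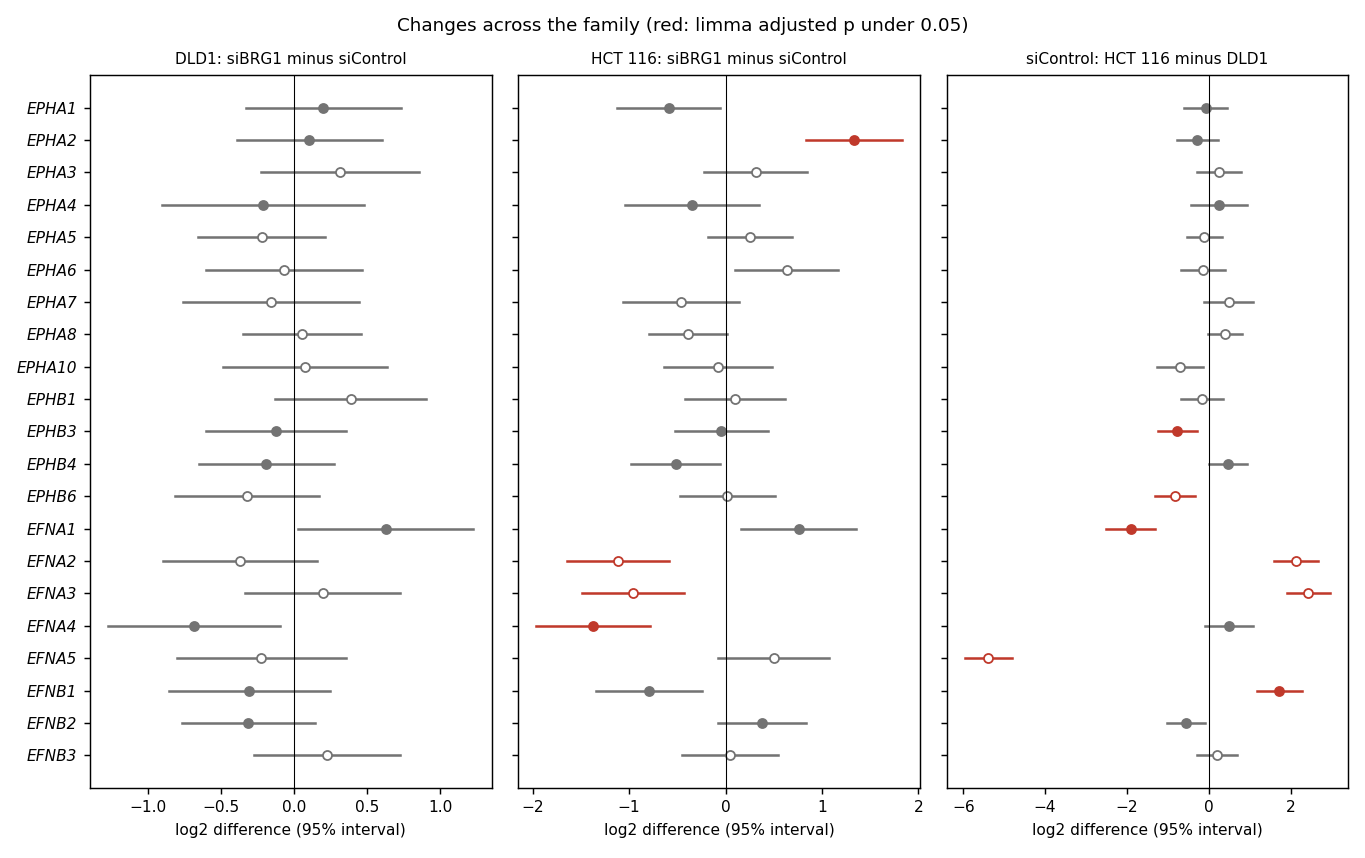
Log2 change after siBRG1 in DLD1 (left) and HCT 116 (centre), and the HCT 116 minus DLD1 difference in siControl cells (right), for the 9 genes (filled) and 12 other family genes (open), with 95% intervals and a separate horizontal scale in each panel. Red marks limma adjusted p under 0.05: none in DLD1, EPHA2 (1.33), EFNA4 (-1.37), EFNA2 and EFNA3 in HCT 116, and 7 genes between the lines, with EFNA5 at -5.38.

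The lines also differed before any BRG1 knockdown. Of the 9 genes, 3 passed between HCT 116 and DLD1 siControl cells, where 27.6% of all genes did. EFNA1 was lower in HCT 116, at 5.84 ± 0.39 against 7.75 ± 0.42 (SD, n = 3 arrays each; log2 difference -1.91, SE 0.28, limma adjusted p = 8.74e-05). EFNB1 was higher in HCT 116, at 7.79 ± 0.49 against 6.07 ± 0.47 (difference 1.72, SE 0.26, limma adjusted p = 0.000106). For both genes the siControl groups of the lines did not overlap. EFNA1 was below the array median on 4 of the 6 HCT 116 arrays, all 3 of siControl among them, and EFNB1 on 5 of the 6 DLD1 arrays. The lower side of each difference therefore cannot be told from background, and no fold is given. In the order of levels, both HCT 116 groups of EFNA1 lay below both DLD1 groups, and both HCT 116 groups of EFNB1 lay above both DLD1 groups. EPHB3 was lower in HCT 116 by a log2 difference of -0.77 (SE 0.22, limma adjusted p = 0.0176), at values near or below the array medians in both lines. It no longer passed without DLD1 siControl 3 (-0.61, limma adjusted p = 0.0896) or HCT 116 siControl 3 (-0.63, limma adjusted p = 0.0808). EPHA2, EPHB4, EFNA4 and EFNB2 did not pass, with differences of -0.28, 0.47, 0.50 and -0.56 (limma adjusted p = 0.436, 0.127, 0.221 and 0.0658). Without DLD1 siControl 2, EFNA4 (0.80, limma adjusted p = 0.0377) and EFNB2 (-0.80, limma adjusted p = 0.00918) passed, so that 5 of the 9 genes did. The share of all genes passing in that fit was not counted, and 27.6% is the share with all arrays kept.

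All 12 other Eph and ephrin genes looked for had a row, and 9 of them were below every array's median: EPHA3, EPHA5, EPHA6, EPHA7, EPHA8, EPHA10, EPHB1, EFNA2 and EFNB3. In HCT 116, 2 of the 12 fell after siBRG1, where 4.13% of all genes did, and both are A-type ephrins. EFNA3 read 9.00, 9.22 and 9.01 in siControl cells and 8.20, 7.90 and 8.25 after siBRG1, with no overlap, and fell 1.95-fold (log2 change -0.96, SE 0.25, limma adjusted p = 0.0304). EFNA2 read 5.82, 5.81 and 6.44 against 4.67, 5.32 and 4.74 and fell (log2 change -1.11, SE 0.25, limma adjusted p = 0.0141), at levels that cannot be told from background. Neither call held in all 12 fits that left out 1 array, where the change was -1.03 to -0.85 for EFNA3 and -1.32 to -0.91 for EFNA2. With the replicate number as a block both passed (limma adjusted p = 0.0134 and 0.0194). EFNA3 did not pass without HCT 116 siControl 2 or 3 (limma adjusted p = 0.112 and 0.0713) or without HCT 116 siBRG1 1, 2 or 3 (limma adjusted p = 0.0555, 0.116 and 0.0671). EFNA2 did not pass without HCT 116 siControl 3 (-0.91, limma adjusted p = 0.0674) or siBRG1 3 (-1.03, limma adjusted p = 0.0634). In DLD1 none of the 12 passed limma's adjusted test, where 0.198% of all genes did, and 0 had an unadjusted p under 0.05. The share of all genes with such an unadjusted p was not counted. EFNA5, an A-type ephrin, was the widest of the line differences in the family, at 10.21, 10.69 and 10.51 in DLD1 siControl cells and 5.11, 4.97 and 5.19 in HCT 116 siControl cells. The log2 difference was -5.38 (SE 0.27, limma adjusted p = 6.39e-10), and no fold is given because EFNA5 was below the array median on all 6 HCT 116 arrays, where it cannot be told from background. EFNA3 was 5.40-fold higher in HCT 116 siControl cells (log2 difference 2.43, limma adjusted p = 2.07e-06). Its DLD1 siControl values, 6.44 to 6.87, lie near the array medians, and it was below the median on 1 of the 6 DLD1 arrays, so this fold is uncertain. EFNA2 also read higher in HCT 116 siControl cells (log2 difference 2.13, limma adjusted p = 8.15e-06), at values below every array's median in both lines.

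EFNA4, EFNA3 and EFNA1 follow one another on chromosome 1 in the RefSeq annotation, between ADAM15 and SLC50A1,, and their HCT 116 values differed in sign. EFNA4 and EFNA3 fell by 1.37 and 0.96 on the log2 scale, while EFNA1 read 0.76 higher without passing. ADAM15, a membrane metalloprotease on the EFNA4 side, fell by 0.82 in HCT 116 (SE 0.23, limma adjusted p = 0.0439), a narrow pass. It was lost without DLD1 siControl 2 or 3 (limma adjusted p = 0.0562 and 0.0526) and without DLD1 siBRG1 2 (limma adjusted p = 0.0561). It was also lost without HCT 116 siControl 2 or 3 (-0.71 and -0.68, limma adjusted p = 0.162 for both) and without HCT 116 siBRG1 1, 2 or 3 (limma adjusted p = 0.0929, 0.116 and 0.0991). SLC50A1, a sugar transporter on the EFNA1 side, read 0.84 higher and did not pass (limma adjusted p = 0.0847), though it did without HCT 116 siControl 3 (1.10, limma adjusted p = 0.0424). The outer neighbours DCST1, DPM3 and KRTCAP2 did not pass, at 0.05, -0.22 and 0.39. In DLD1 none of these genes passed, with EFNA4 at -0.68, EFNA3 at 0.20 and EFNA1 at 0.63. RefSeq also lists an EFNA4-EFNA3 readthrough transcript, and the sources used here do not give probe positions, so its share in the EFNA4 and EFNA3 values was not tested. These neighbours were chosen by position after the EFNA values had been seen.

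**Figure D3:**
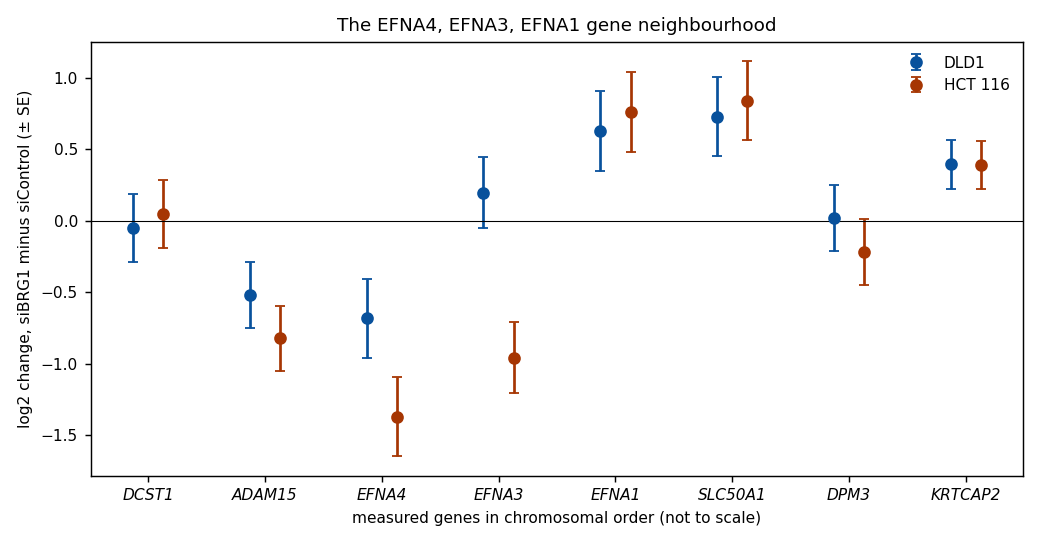
Log2 change after siBRG1 (points, with SE) in DLD1 and HCT 116 for 8 genes in their order on chromosome 1, spaced evenly and not to scale. In HCT 116, ADAM15 (-0.82), EFNA4 (-1.37) and EFNA3 (-0.96) lie below 0 and EFNA1 (0.76) and SLC50A1 (0.84) above it.

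Of 59 genes for proteins that bind, cleave or act downstream of Eph receptors and ephrins, 52 were measured. In DLD1, 1 of the 52 passed, where 0.198% of all genes did: the kinase LIMK1, which phosphorylates cofilin and so slows actin turnover. It fell by 2.33 (SE 0.27, limma adjusted p = 0.00175), and it fell by 2.42 in HCT 116 (limma adjusted p = 0.000134). It passed in each line in all 12 fits that left out 1 array. Its siBRG1 values, 5.28 to 6.29 in DLD1 and 5.40 to 6.31 in HCT 116, lie below the array medians, so the level it fell to cannot be told from background. With the replicate number as a block, GRB10, an adaptor of receptor tyrosine kinases, passed in DLD1 as well (-1.43, limma adjusted p = 0.0404 against 0.225 without the block), which makes 2 of 52. In HCT 116, 5 of 52 passed, 1 higher and 4 lower, where 6.95% of all genes did. This count moved with the setting: it was 11 with the block, 10 with array weights and 9 with genes above the median level. It was 3 with further quantile normalization or with centring on array medians. With each line fitted alone or at an adjusted p under 0.01 it was 2. The shares of all genes passing were not counted under these settings, nor with the block in DLD1. ITSN2, an endocytic scaffold, rose by 1.21 (SE 0.24, limma adjusted p = 0.00694), and passed in all 12 such fits. VAV2 fell by 1.10 (limma adjusted p = 0.0476) although its groups overlapped. PDLIM1, a cytoskeletal adaptor, fell by 0.82 (limma adjusted p = 0.0340), and ANKS1A, an adaptor that binds Eph receptors, fell by 0.74 (limma adjusted p = 0.0419). Of the 12 fits that left out 1 array each, VAV2 passed in 5 (adjusted p up to 0.188), PDLIM1 in 8 (up to 0.137) and ANKS1A in 3 (up to 0.164). VAV2 did not pass without DLD1 siControl 2, DLD1 siBRG1 1 or 2, HCT 116 siControl 2 or 3 or HCT 116 siBRG1 2 or 3 (change -1.46 to -0.88 over the fits). PDLIM1 did not pass without HCT 116 siControl 2 or 3 or HCT 116 siBRG1 1 or 2 (-1.05 to -0.67). ANKS1A passed without DLD1 siBRG1 1, DLD1 siBRG1 2 or HCT 116 siBRG1 1, and without no other array (-0.92 to -0.60). The median change over the 52 genes was -0.02 in each line.

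Of 25 beta-catenin and TCF targets and related crypt genes, 22 were measured, and EPHB3 is itself such a target. In DLD1, 1 of 22 passed, where 0.198% of all genes did: CD44, a hyaluronan receptor, fell by 1.05 (SE 0.18, limma adjusted p = 0.0352). In HCT 116, 4 of 22 passed, 1 higher and 3 lower, where 6.95% of all genes did. AXIN2, a feedback inhibitor of the pathway, fell by 2.40 (SE 0.16, limma adjusted p = 1.14e-06), and SOX9, a crypt-base transcription factor, fell by 0.95 (limma adjusted p = 0.00727). RNF43, a ligase that removes Wnt receptors, fell by 1.14 (limma adjusted p = 0.0184), and KLF5, a crypt transcription factor, rose by 0.71 (limma adjusted p = 0.0148). CD44 passed without DLD1 siBRG1 1, HCT 116 siControl 1 or HCT 116 siBRG1 1, and did not pass without any one of the other 9 arrays (adjusted p 0.0511 to 0.259). RNF43 did not pass without HCT 116 siControl 1 or 2 or HCT 116 siBRG1 2 or 3 (adjusted p 0.0536 to 0.0863), nor KLF5 without HCT 116 siControl 3 or siBRG1 2 (adjusted p 0.058 and 0.0571). The median change over the 22 genes was -0.17 in DLD1 and 0.03 in HCT 116. AXIN2 and SOX9 also differed between the lines in their change, and LGR5 and RNF43 did so with the replicate number as a block (limma adjusted p = 0.0477 and 0.0431, against 0.0991 and 0.199 without it). The EPHB3 values given above were -0.12 and -0.05.

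For the 3 genes that passed on average, the genes whose values moved most alike were found by Pearson correlation over the 12 arrays after each line's mean was subtracted. For EPHA2 they were LATS2 (r = 0.956), ZMAT3 (r = 0.949) and SUSD6 (r = 0.946). For EFNA1 they were MB21D2 (r = 0.965), MED27 (r = 0.961) and DAP3 (r = 0.950). For EFNA4 they were MANEA (r = 0.977), TANK (r = 0.965) and IARS1 (r = 0.941). The 12 points share siRNA groups and arrays, and each gene was picked as the highest of 17687, so these values are descriptions without a test.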

How the data were processed

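RNA of 12 samples was measured on 1-colour Affymetrix arrays. Per the submitters' processing notes the authors summarised the probes by RMA in Affymetrix Power Tools, and the deposited values are log2 expression; neither versions nor a build are named in the sources used here. Between 94 and 112 values per array exceed 16, so a step beyond plain RMA was taken that the sources do not name. Groups came from the sample titles; in 4 HCT 116 samples the source name has a different line or siRNA number. Of 21448 features, 17709 were named through the platform annotation and RefSeq, giving 17687 genes (brightest row kept for 20 genes), and 3739 unnamed features were left out. One limma (3.58.1, R 4.3.3) fit of 4 group means over all arrays gave every test, except where an alternative setting is named. Benjamini-Hochberg adjustment was over all genes, with a threshold of 0.05. The fit was tested on simulated data. The members and lists were chosen with earlier results of these data known. All measured members and other family genes are named. Further genes are named as the siRNA target, as markers, as neighbours by position, where they passed in a line, or as the 3 most alike by correlation. GRB10 and LGR5 are named because they passed only with the replicate number as a block. Arrays of one number deviated together in DLD1 (r = 0.485, 0.459 and 0.291), which pairs them by the data and not the labels. The main fit leaves this pairing out, and only the fit with the replicate number as a block takes it in. In HCT 116 arrays of one number did not all deviate together (r = 0.299, 0.149 and 0.0284). The number of arrays limits the precision. The alternatives were 23, of which 12 left out 1 array.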

Additional observations from a re-analysis of the deposited data

Results flagged for a closer look

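Among the crypt genes, 2 differed between the lines in their change by the interaction term of the limma fit. The AXIN2 change in HCT 116 minus that in DLD1 was -2.01 (SE 0.23, limma adjusted p = 0.00117), from -2.40 in HCT 116 and -0.39 in DLD1. The SOX9 difference was -1.61 (SE 0.27, limma adjusted p = 0.0161), from -0.95 in HCT 116 and 0.66 in DLD1. With the replicate number as a block 4 of the 22 crypt genes differed, LGR5 (1.56) and RNF43 (-1.34) being added. The share of all genes that differed with the block was not counted. Of the 9 ephrin receptors and ephrins measured, none differed between the lines by the same test.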

How the results depend on the processing

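Over 82 gene results and 23 alternatives, 1675 of 1809 values kept their direction and side of the threshold, 90 lost a call, 14 gained one and 30 reversed, none of them a change called at the reported setting. The members called in HCT 116 were 1 when genes had to lie above the median level, which drops EFNA4. At an adjusted p under 0.01, 1 member passed on average over the lines. Leaving out 1 array, the members called were 2 to 3 in HCT 116, 2 to 3 on average and 2 to 5 between siControl lines, and 0 in DLD1 and for the difference. The shares of all genes passing under these settings were not counted. Reversed values were EPHB3 at 0.028 in HCT 116 with arrays centred on their medians and EPHB6 at -0.15 with array weights. Leaving out 1 array, DLD1 changes ran from -0.087 to 0.39 for EPHA1, -0.079 to 0.27 for EPHA2, -0.48 to 0.052 for EPHA4, -0.35 to 0.034 for EPHB3 and -0.14 to 0.40 for EFNA3. HCT 116 changes ran from -0.18 to 0.051 for EPHB3 and -0.28 to 0.21 for EPHB6, and the EFNB2 average from -0.088 to 0.095. Differences between lines ran from -0.52 to 0.18 for EPHA4, -0.079 to 0.31 for EPHB3 and -0.085 to 0.35 for EFNA1, and the EPHA1 siControl difference from -0.37 to 0.11.

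With the replicate number as a block, members called were 0 in DLD1, 3 in HCT 116, 4 on average and 0 for the difference; EFNB1 was the added one (limma adjusted p = 0.0441 and 0.0427), and SLC50A1 also passed in HCT 116 (0.029). In HCT 116 siControl 3 correlated better with siBRG1 2 (r = 0.229) than with its own number. The block could not be fitted for siControl cells of the 2 lines. The share of all genes passing with the block was not counted. With array weights EFNB1 passed in HCT 116 (limma adjusted p = 0.0115). CD44 did not pass in DLD1 with each line fitted alone (limma adjusted p = 0.166). At an adjusted p under 0.01, 2 crypt genes and 0 of the 12 other family genes passed in HCT 116. The share of all genes passing at that threshold was not counted. With 3 arrays a group, small changes cannot be resolved. Without detection calls, low levels such as those of EFNA4 and EPHB3 cannot be told from background, even where a change passed, as the EFNA4 fall in HCT 116 did.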
